A study of Mus musculus with 12 samples.

Results

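The semaphorins, their plexin receptors and the neuropilins were examined in brain and liver of aged mice after periodic heat stress. They were taken from the deposited count table by gene symbol, as every row that names a semaphorin of class 3 to class 7, a plexin of the A, B, C or D family, or a neuropilin. The rule found 31 of the 25239 rows, which were 20 semaphorins, 9 plexins and 2 neuropilins, and it used no measured value. In brain all 31 genes had enough reads to be tested, and in liver 23 did.

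All animals were male wild type C57BL/6J mice of 24 months. The heat stress group was held at 40 ± 0.5 °C and a relative humidity of 60 ± 5% for 3 h a day over 15 days, the control group was not heated, and tissues were taken at 24 months and 16 days. RNA was sequenced from frozen pieces of brain and of liver in 3 libraries per group, 12 in all. The sources used here do not name the brain region, nor do they say which brain and liver libraries came from 1 animal, and males only were studied. Library totals were 11889432 to 14597197 counts in control brain, 10552686 to 11147095 in heat-stressed brain, 10466198 to 15609040 in control liver and 13553880 to 13764379 in heat-stressed liver, so the heat-stressed brain libraries were the shallower ones of that tissue.

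Semaphorins are guidance proteins that carry a sema domain and act on the cytoskeleton of the receiving cell. Class 3 members are secreted, and most of them bind a neuropilin that pairs with an A-type plexin, whereas classes 4 to 6 span the membrane and class 7 is held by a lipid anchor, and these bind plexins directly. Plexins carry a GTPase-activating domain inside the cell, and B-type plexins also recruit exchange factors for RhoA. In the adult brain the family is known for its part in synapse and spine remodelling and in glia, and in liver neuropilin 1 is known from sinusoidal endothelium and other non-parenchymal cells.

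Upstream sequences were available in the RefSeq promoter set (GRCm38.p6, 250 bases before to 50 bases after each start) for 26 of the 31 genes, in 37 windows, and not used for Plxna1, Plxna4, Sema3b, Sema3f and Sema6a. Of these windows 5 are printed 5′ to 3′, all from the plus strand, because 4 belong to genes with lower levels in heat-stressed brain and the last, Sema4g, to the member with the highest level per length in liver. They lie at chr9:57939862-57940161 (Sema7a), chr15:32244563-32244862 (Sema5a), chr9:109095186-109095485 (Plxnb1), chr8:128358823-128359122 (Nrp1) and chr19:44989094-44989393 (Sema4g). Capitals mark the GC box letters GGGCGG or CCGCCC, the reverse complement of each other, and neighbouring matches may overlap.
Sema7a: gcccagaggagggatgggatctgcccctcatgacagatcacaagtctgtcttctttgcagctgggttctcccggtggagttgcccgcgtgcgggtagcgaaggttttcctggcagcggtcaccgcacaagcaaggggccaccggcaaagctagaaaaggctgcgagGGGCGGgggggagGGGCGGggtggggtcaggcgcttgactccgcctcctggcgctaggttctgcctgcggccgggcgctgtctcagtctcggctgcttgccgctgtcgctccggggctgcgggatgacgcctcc
Sema5a: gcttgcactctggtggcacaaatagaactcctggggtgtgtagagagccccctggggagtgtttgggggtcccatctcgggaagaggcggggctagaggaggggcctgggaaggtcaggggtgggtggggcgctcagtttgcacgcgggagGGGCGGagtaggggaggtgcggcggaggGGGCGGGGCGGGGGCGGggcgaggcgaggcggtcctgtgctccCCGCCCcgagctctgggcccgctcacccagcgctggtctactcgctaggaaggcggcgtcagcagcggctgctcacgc
Plxnb1: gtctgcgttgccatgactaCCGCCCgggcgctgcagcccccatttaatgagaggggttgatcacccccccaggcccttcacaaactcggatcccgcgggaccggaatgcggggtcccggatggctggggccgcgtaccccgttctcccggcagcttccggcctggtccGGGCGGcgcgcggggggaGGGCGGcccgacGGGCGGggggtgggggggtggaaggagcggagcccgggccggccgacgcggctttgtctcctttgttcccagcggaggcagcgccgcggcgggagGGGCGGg
Nrp1: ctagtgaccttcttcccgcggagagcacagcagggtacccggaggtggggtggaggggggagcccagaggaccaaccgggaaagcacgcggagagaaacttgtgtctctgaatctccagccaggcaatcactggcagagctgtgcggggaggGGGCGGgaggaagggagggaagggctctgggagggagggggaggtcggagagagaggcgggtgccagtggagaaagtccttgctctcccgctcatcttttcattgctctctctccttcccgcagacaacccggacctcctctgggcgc
Sema4g: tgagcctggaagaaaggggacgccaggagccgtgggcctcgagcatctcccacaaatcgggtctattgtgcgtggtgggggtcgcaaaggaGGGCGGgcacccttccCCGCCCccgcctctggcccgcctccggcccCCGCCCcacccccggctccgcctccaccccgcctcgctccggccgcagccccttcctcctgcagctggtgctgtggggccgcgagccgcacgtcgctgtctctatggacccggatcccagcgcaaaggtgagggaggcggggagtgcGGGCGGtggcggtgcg

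The GC box letters were present in 27 of the 37 member windows (73.0%) and in 35.7% of all 32851 windows, and the member windows had a median GC content of 63.7% against 52.7%. The TATA box letters TATAAA or TTTATA were in 0 of the 37 and in 13.6% of all. Heat shock element letters in the form GAANNTTC were in 0 member windows (7.86% of all), and in the form TTCNNGAA in 1, that of Sema4b (8.52% of all). The cyclic AMP response element TGACGTCA was in 0 member windows and in 1.79% of all windows. These are matches of letters in a short window and were not linked to the expression values.

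Control brain and control liver were compared first, to show where the members are expressed. Of the 31 genes, 23 were higher in brain and 4 higher in liver at an adjusted p under 0.05 (quasi-likelihood test of edgeR, p adjusted by Benjamini and Hochberg), where 44.2% and 36.1% of all genes tested were called in these directions. Plxna3, Plxnb3, Sema3a, Sema3e, Sema3g, Sema4f, Sema5a and Sema7a are among the 23 and had too few liver reads for the liver test. They passed the filter of this fit through their brain reads, so their direction was largely fixed beforehand. The shares of all genes include such genes too. Levels between genes are given as counts scaled to the library (CPM) divided by the length of all exons in kilobases. Sema7a, a lipid-anchored ligand of integrins and plexin C1, had the highest level per length in brain, at 44.1, 24.4 and 33.5 CPM per kilobase in the 3 control libraries, and 9 reads in all in the 3 control livers. Sema6b, a transmembrane ligand of A-type plexins, came next in brain with 18.4 ± 1.78 CPM per kilobase (SD, n = 3), and it had 1.15 ± 0.281 in liver. Sema7a and Sema6b did not overlap in control brain, whereas in heat-stressed brain they did, at 14.6 to 22.2 and 16.3 to 19.5 CPM per kilobase.

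**Figure D1:**
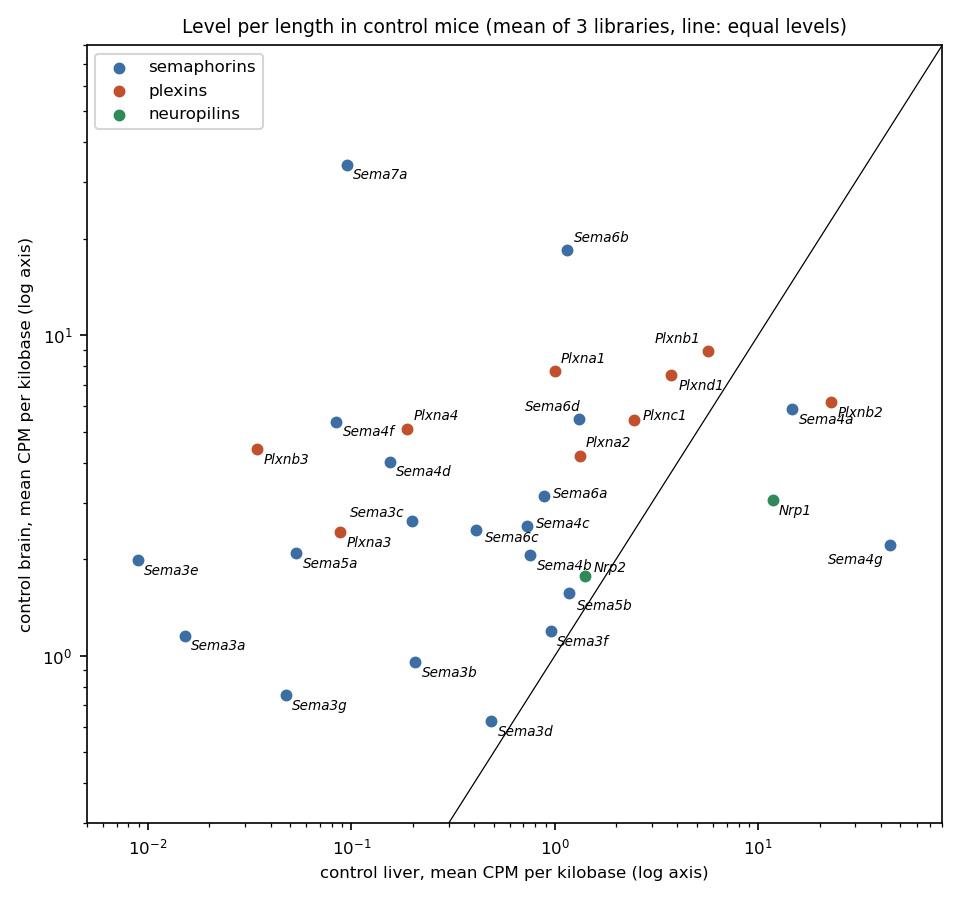
Mean level per length of each member in control liver (horizontal, CPM per kilobase, log axis) and control brain (vertical, CPM per kilobase, log axis), each point 1 gene over 3 libraries. Sema4g, Plxnb2, Sema4a and Nrp1 lie to the right of the line of equal levels, and Sema7a and Sema6b stand at the top.

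Sema4g, a membrane semaphorin of class 4, was the highest member in liver, at 53.9, 33.8 and 46.0 CPM per kilobase in control libraries against 1.85, 1.68 and 3.12 in brain. It was 20.1-fold higher in liver (log2 difference, brain minus liver, -4.33 ± 0.31, adjusted p = 1.5e-08). Plxnb2, a receptor of class 4 semaphorins, followed at 22.8 ± 10.5 CPM per kilobase (SD, n = 3) in liver and was 3.69-fold higher there. Its 3 control livers were at 34.9, 17.1 and 16.5 CPM per kilobase, so 1 library carried much of that mean, and the lowest of them was still above the highest control brain at 6.64. Nrp1, the coreceptor of class 3 semaphorins and of VEGF, was 3.86-fold higher in liver (11.8 ± 1.41 against 3.05 ± 0.285 CPM per kilobase), and Sema4a 2.51-fold higher (14.7 ± 7.21 against 5.87 ± 1.38). In liver the neighbours Plxnb2, Sema4a and Nrp1 had overlapping values, at 16.5 to 34.9, 9.13 to 22.9 and 10.3 to 13.0 CPM per kilobase.

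Nrp2, Sema3d, Sema3f and Sema5b were not called between the tissues, and their fitted brain to liver ratios were 1.24 to 1.33. The lowest levels per length in control liver were those of Sema3e, Sema3a and Plxnb3, whereas the class 3 ligands Sema3f and Sema3d were at 0.955 and 0.486 CPM per kilobase there. Sema3e, the ligand of plexin D1, had 1039 reads in control brain and 2 in control liver, a ratio of 240 (95% counting interval 66.4 to 1987). Sema7a had 6441 and 9, a ratio of 331 (174 to 724). Among the plexins, Plxnb3, which oligodendrocytes are known to express, had 1594 and 6 reads, a ratio of 123 (56.3 to 335). These intervals cover counting error only. The receptor Plxnd1 was less unequal, at 7.49 ± 2.16 CPM per kilobase in brain and 3.70 ± 0.645 in liver (2.02-fold, adjusted p = 0.00178).

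In brain the members were mostly lower after heat stress. The log2 fold change was below 0 for 29 of 31 genes, where 50.3% of all 14806 genes tested lay below 0, and the median was -0.34 for the members and -0.003 for all genes. By the same test 14 members were lower and 0 were higher at an unadjusted p under 0.05, against 10.0% lower and 10.0% higher of all genes. No member passed an adjusted p of 0.05 (smallest adjusted p = 0.17), as 0 of all 14806 genes did in brain. The adjusted p was 0.17 for the 9 leading genes and 0.18 to 0.22 for the other 5. For 9 of the 14 the unadjusted p stayed under 0.05 whichever library was left out, whereas Plxna2, Plxna3, Sema4c, Sema4f and Sema6d kept it in 2 to 4 of 6 such fits, and the direction held in all of them. DESeq2 on the same counts gave an adjusted p for 23 of the 31 and called 8 members lower and 0 higher at an adjusted p under 0.05, where it called 3.66% of the genes it adjusted lower and 3.91% higher. With offsets for transcript length and GC content, described below, edgeR called 7 lower (unadjusted p under 0.05), against 5.40% of all genes. Then 23 of 31 lay below 0 (49.3% of all genes), with a median of -0.16. In bulk tissue fewer cells of a type and less RNA per cell cannot be told apart.

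**Figure D2:**
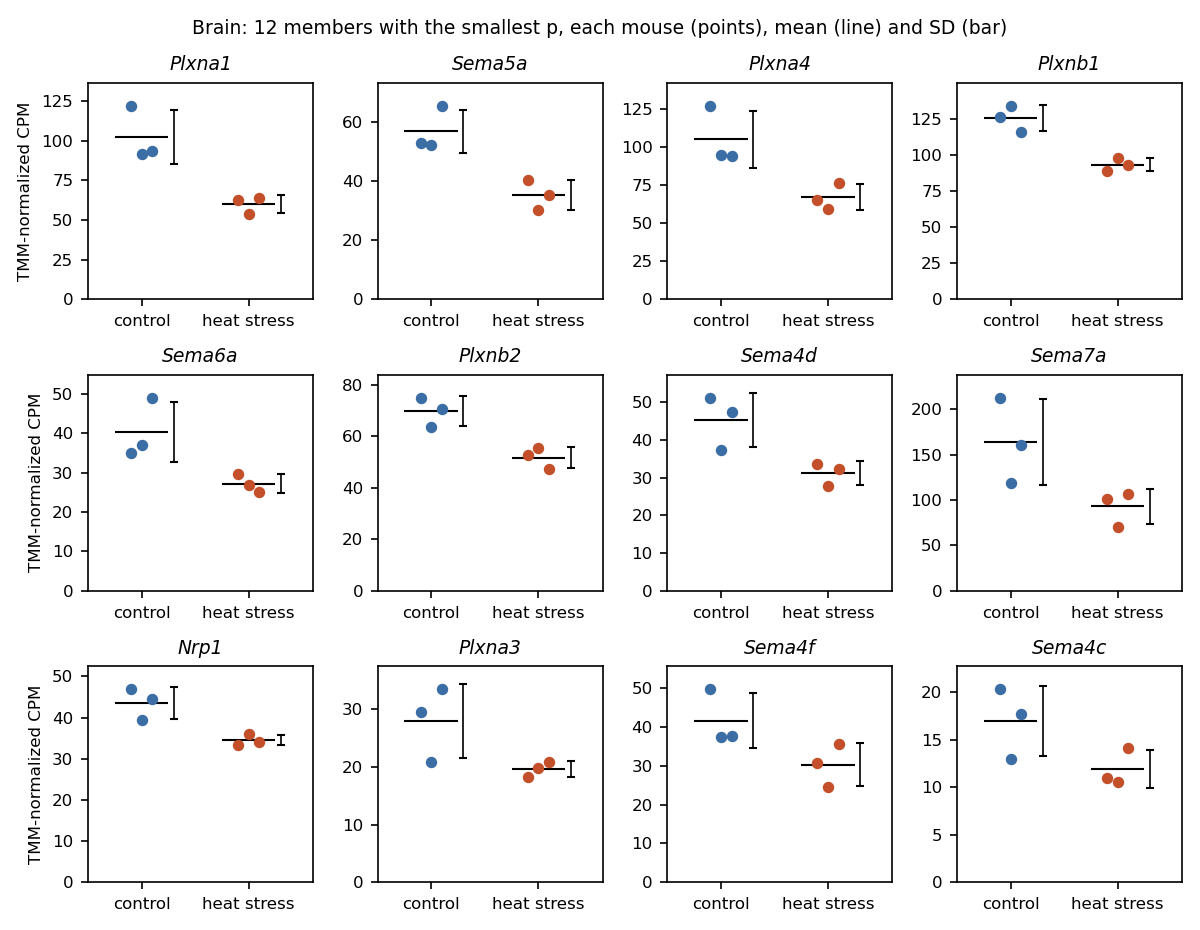
Level of the 12 brain members with the smallest p (TMM-normalized CPM, linear axes from 0) in control and heat-stressed mice, with 1 point per library, the mean as a line and the SD as a bar. The groups do not overlap except for Plxna3 and Sema4c, whose heat stress values reach into the control range. The 12 were picked by p in these same data, so this separation adds no evidence. Its share over all genes is not given here.

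The A-type plexins, which transduce class 3 and class 6 semaphorins, were lower in 4 of 4 cases, against 10.0% of all genes. With offsets for transcript length and GC content, described below, Plxna1 and Plxna4 remained called and Plxna2 (-0.16) and Plxna3 (-0.19) did not, and the median of the 4 log2 fold changes went from -0.58 to -0.22. Plxna1 was measured at 122, 91.3 and 93.2 CPM in control and 62.7, 53.7 and 63.9 CPM in heat-stressed brain. The lowest control was well above the highest heat-stressed library, and the mean was lower by 41.1% (log2 fold change -0.76 ± 0.14 SE, adjusted p = 0.17, with DESeq2 adjusted p = 0.0028). Plxna4, a receptor for Sema3a and Sema6a, stood at 127, 94.8 and 94.1 CPM in control and 65.1, 59.6 and 76.3 CPM after heat stress. Its groups did not overlap either, with a log2 fold change of -0.65 ± 0.15. Plxna3, known from Sema3f signalling together with neuropilin 2, had 29.5, 20.9 and 33.5 CPM in control and 18.3, 19.9 and 20.97 CPM after heat stress, a log2 fold change of -0.51 ± 0.17. Control library 2 lay within the heat stress range. Plxna2, the receptor of Sema6a, had a log2 fold change of -0.49 ± 0.20, from 106 ± 28.8 to 75.0 ± 13.3 CPM (SD, n = 3), and its groups overlapped.

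Of the B-type plexins, which act on RhoA through their exchange factors, 2 of 3 were called lower, against 10.0% of all genes, and 0 of 3 with the offsets. Plxnb1, the main receptor of Sema4d, was at 126, 134 and 116 CPM in control and 88.9, 98.2 and 92.7 CPM in heat-stressed brain. All 3 heat-stressed libraries were below all controls, with little spread in either group (log2 fold change -0.42 ± 0.11). Plxnb2 was at 74.9, 63.5 and 70.7 CPM in control and 52.5, 55.3 and 47.2 CPM after heat stress (log2 fold change -0.43 ± 0.11). Plxnb3 had a similar log2 fold change of -0.48 but a wider error of 0.25 (adjusted p = 0.31), since control library 3 was at 60.4 CPM and the other controls at 31.2 and 33.6. Plxnc1, the receptor of Sema7a, was at 66.4 ± 11.4 and 58.4 ± 5.31 CPM (adjusted p = 0.48). Plxnd1, which vascular endothelium is known to express, was at 87.6, 98.8 and 53.6 CPM in control and 58.5, 94.2 and 99.2 CPM after heat stress, a log2 fold change of 0.07 ± 0.25 that turned negative when any of 3 single libraries was left out. With the offsets Plxnd1 had 0.40 ± 0.27 and was not called.

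Nrp1 was at 46.9, 39.4 and 44.5 CPM in control brain and 33.4, 35.9 and 34.2 CPM in heat-stressed brain. Its groups did not overlap, and the level was lower by 20.9% (log2 fold change -0.34 ± 0.11). This was the smallest change among the 14 called genes without the offsets, while with them it was -0.50 and only Sema7a, at -0.65, had a larger one. Nrp2, the preferred coreceptor of Sema3f, was at 25.6, 37.4 and 29.0 CPM in control and 24.3, 33.8 and 27.2 CPM after heat stress (adjusted p = 0.755), and its direction turned with the length and GC offsets described below.

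None of the 7 secreted class 3 ligands was called in brain by edgeR's unadjusted p, against 10.0% of all genes in each direction. A count of 0 of 7 is near that share. DESeq2 called 0 of the 3 for which it gave an adjusted p (Sema3a, Sema3c and Sema3e), against 3.66% of genes lower and 3.91% higher. Of all 7, Sema3g alone was lower by DESeq2's unadjusted p under 0.05, as were 6.99% of all genes. Their summed level was 106 ± 6.35 CPM in control and 97.8 ± 3.63 CPM after heat stress (SD, n = 3). Sema3a, the classical repellent that signals through neuropilin 1, differed by -0.03 ± 0.15 on the log2 scale, and Sema3c by -0.07 ± 0.13. Sema3g had the lowest log2 fold change of all members, -0.97 ± 0.49 (adjusted p = 0.29), from a low level in which control library 1 was at 8.98 CPM and the other controls at 1.92 and 4.05, while heat-stressed libraries were at 2.08 to 2.87 CPM. Sema3d was 1 of the 2 members above 0, with 0.25 ± 0.28, and Sema3b, Sema3e and Sema3f lay between -0.28 and -0.18.

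The membrane-bound ligands accounted for the other 7 calls. These were 3 of 6 genes in class 4, 1 of 2 in class 5, 2 of 4 in class 6 and 1 of 1 in class 7, against 10.0% of all genes. With the length and GC offsets 1 gene of each class was lower (Sema4d, Sema5a, Sema6a and Sema7a), against 5.40% of all genes. Sema7a had 213, 119 and 160 CPM in control and 101, 70.9 and 107 CPM in heat-stressed brain. It had the largest change among the called genes being lower by 43.3% (log2 fold change -0.82 ± 0.22, DESeq2 adjusted p = 0.015), although the lowest control and the highest heat-stressed library were close. Its receptor gene Plxnc1 was not called, as given above. Sema5a, a transmembrane ligand with thrombospondin repeats, was at 53.1, 52.3 and 65.4 CPM in control and 40.5, 30.3 and 35.4 CPM after heat stress. Every heat-stressed library was below every control (log2 fold change -0.69 ± 0.14), while its paralogue Sema5b did not differ beyond its spread (16.2 ± 3.50 and 14.9 ± 3.93 CPM, adjusted p = 0.76).

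Sema4d, a ligand of plexin B1 that is also known from lymphocytes and oligodendrocytes, was at 51.1, 37.2 and 47.4 CPM in control and 33.6, 27.8 and 32.3 CPM in heat-stressed brain (log2 fold change -0.54 ± 0.14). The groups did not overlap. With the offsets Sema4d had -0.35 and remained called, whereas its receptor gene Plxnb1 was not. Sema4f (-0.25) and Sema4c (-0.32) also lost their calls with the offsets. Sema4f, a class 4 ligand found in neurons, was at 49.6, 37.3 and 37.6 CPM in control and 30.6, 24.6 and 35.6 CPM after heat stress (log2 fold change -0.46 ± 0.17). Sema4c, a ligand of plexin B2, was at 20.3, 13.0 and 17.6 CPM and 11.0, 10.6 and 14.2 CPM (log2 fold change -0.52 ± 0.20), and here control library 2 lay inside the heat stress range. For Sema4a, Sema4b and Sema4g the log2 fold changes were -0.33 ± 0.17, -0.15 ± 0.17 and -0.16 ± 0.23.

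Among the class 6 ligands of A-type plexins, Sema6a was at 35.0, 37.0 and 49.0 CPM in control and 29.7, 26.8 and 25.0 CPM in heat-stressed brain (log2 fold change -0.57 ± 0.15). Of its receptor genes Plxna4 was called with and without the offsets, as Sema6a was, and Plxna2 only without them and in 3 of 6 fits with a library left out. With the replicate number as a block beside the offsets, neither Plxna4 nor Sema6a was called. Sema6d, a ligand of plexin A1, went from 84.4 ± 17.8 to 65.2 ± 4.43 CPM without overlap. Sema6b, the most abundant class 6 member, was unlike these at 118, 99.6 and 102 CPM in control and 95.5, 99.4 and 114 CPM after heat stress, and the groups overlapped through heat stress library 3 alone (log2 fold change -0.06 ± 0.12). Sema6c was at 21.4 ± 5.08 and 17.5 ± 1.57 CPM (adjusted p = 0.385).

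**Figure D3:**
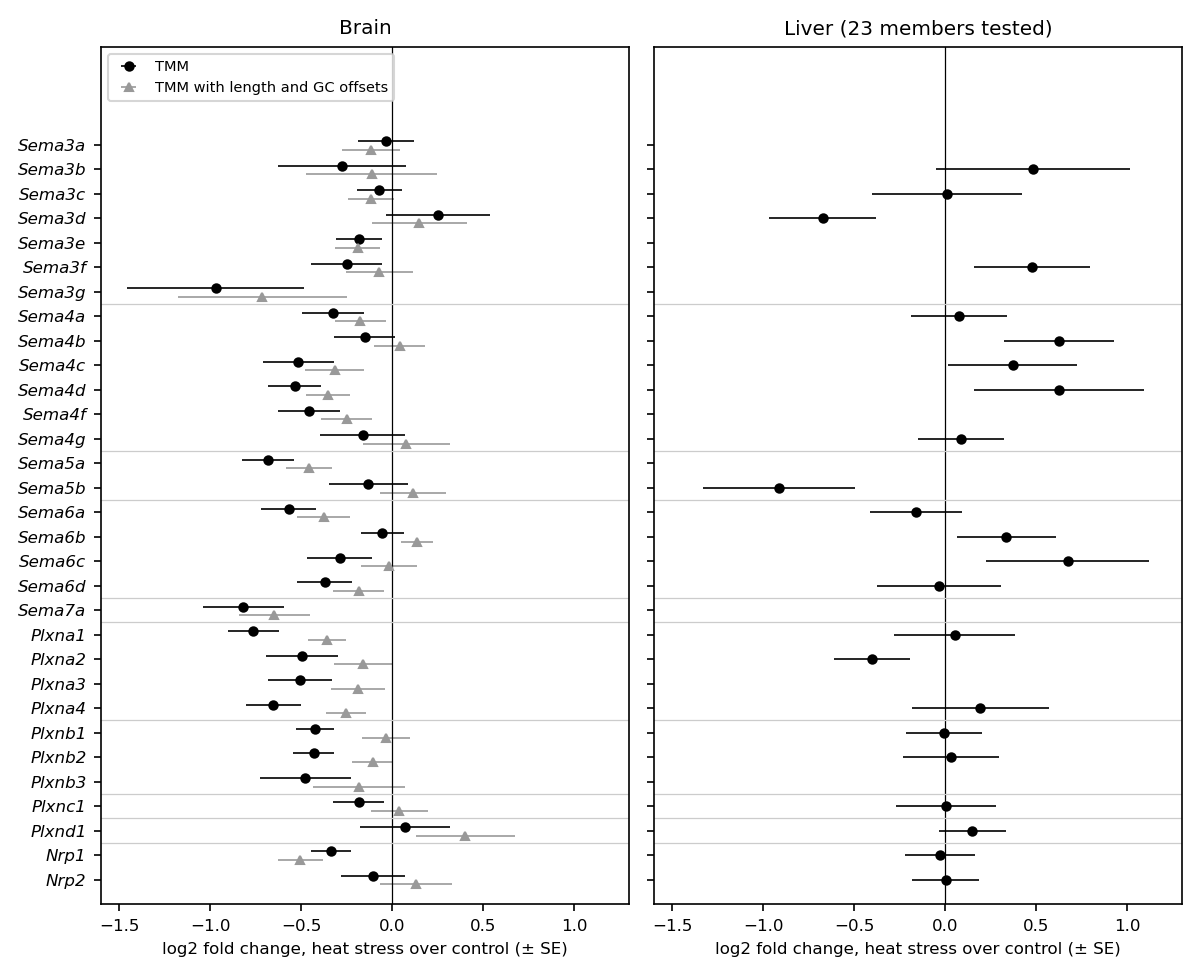
Log2 fold change of heat stress over control with its standard error for each member, in brain (circles, TMM; triangles, TMM with length and GC offsets) and in liver, with family borders as grey lines. In brain 29 circles lie left of 0 and 23 triangles do, and in liver the members lie on both sides.

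The 14 calls were then read against transcript length and base composition, since longer and GC-richer genes as a whole were lower in the heat-stressed brain libraries. Across 14562 genes the brain log2 fold change had a Spearman correlation of -0.38 with transcript length and -0.30 with GC content, and genes share their libraries, so this describes the libraries only. The members were long and GC-rich, with a median longest transcript of 5930 bases against 3434 for all genes and a median GC content of 56.2% against 49.8%. With per-library offsets for length and GC, which brought those correlations to -0.02 each, 7 members remained lower at an unadjusted p under 0.05 (Plxna1, Plxna4, Sema5a, Sema6a, Sema7a, Sema4d and Nrp1), where 5.40% of all genes were lower. The members' median became -0.16 and 23 of 31 lay below 0 (49.3% of all genes). Under the offsets Sema7a had -0.65 ± 0.19, Nrp1 -0.50 ± 0.12 and Plxna1 -0.36 ± 0.10, whereas Plxnb1 went to -0.04 ± 0.13 and Plxnb2 to -0.11 ± 0.11.

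**Figure D4:**
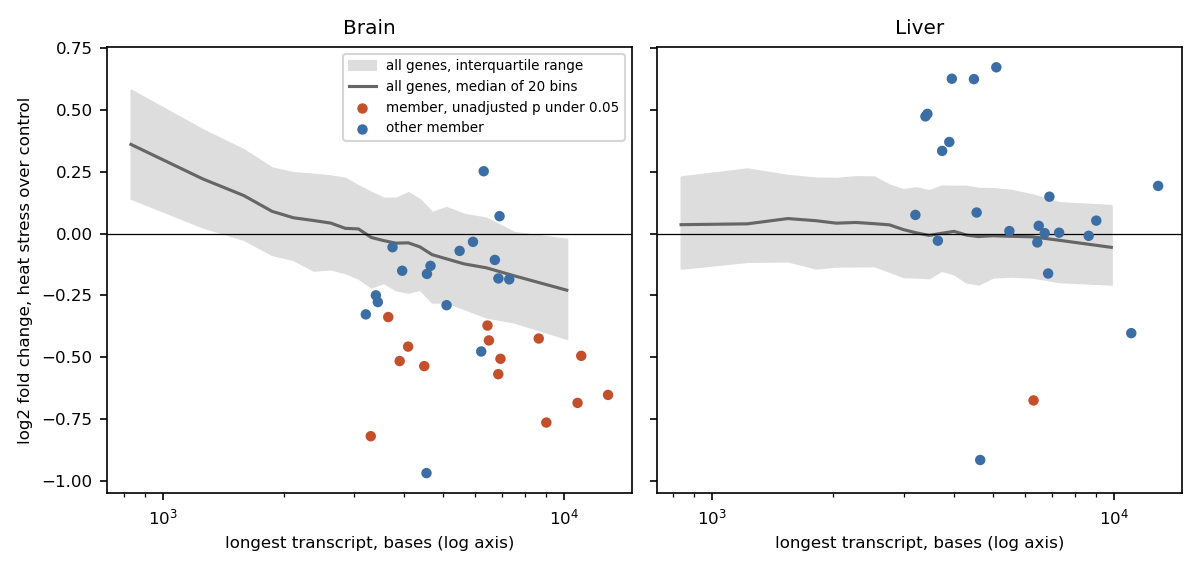
Log2 fold change of heat stress over control against the longest transcript (bases, log axis) in brain and liver, with the median and interquartile range of all genes in 20 length bins, members at an unadjusted p under 0.05 in red and the other members in blue. In brain the line falls with length and the 14 red points lie below it, and in liver the line is nearly flat and 1 point is red.

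Marker genes of other cells and regions also moved with the groups in brain. Endothelial markers summed to 324, 192 and 225 CPM in control and 154, 177 and 138 CPM after heat stress, with 6 of 8 lower at an unadjusted p under 0.05. This and the counts below stand against 10.0% of all genes lower and 10.0% higher in brain. Choroid plexus markers (5 of 9 lower) summed to 1261 to 2511 CPM in control and 264 to 1140 CPM after heat stress, and all 9 striatal markers were higher, with sums of 429 to 789 and 790 to 1686 CPM. Markers of oligodendrocyte precursors (3 of 4 lower) summed to 234 to 258 and 177 to 200 CPM, and those of habenula and thalamus (3 of 7 lower) to 189 to 646 and 156 to 328 CPM. Neuronal markers were not called (0 of 5, 4499 to 6228 and 4573 to 5090 CPM), nor were those of oligodendrocytes (0 of 6). Markers of excitatory cortex and hippocampus were not called either (0 of 5), but all 5 had log2 fold changes below 0 with a median of -0.38 (-0.32 with the length and GC offsets), and they summed to 860 to 1601 CPM in control and 725 to 1037 CPM after heat stress. Marker sums of T and NK cells were low and higher after heat stress, at 4.13 to 5.67 and 6.90 to 19.4 CPM, with Cd4 the 1 gene of that list with enough reads to be tested. Among microglia and macrophage markers 2 of 6 were higher and 1 was lower, with overlapping sums of 242 to 330 and 263 to 299 CPM. Of the astrocyte markers 1 of 6 was lower, and their sums overlapped at 1585 to 2064 and 1540 to 2041 CPM. No marker of these lists was at 0 in brain. The part of these markers, of depth and of length in the lower member levels was not tested beyond the offsets. Without control library 3, which had the highest choroid plexus and habenula sums, 11 members were lower with a median of -0.27, and without control library 2 the count was 18 with a median of -0.46.

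In liver, 2 libraries stood apart before any comparison of members: control library 1 and heat stress library 2 had summed skeletal muscle markers of 358 and 2018 CPM, against 1.03 to 6.62 CPM in the others. Of the 6 liver columns 3 carry the suffix 2nd in their names (control 2, heat stress 1 and heat stress 3), which the labels do not explain, and the 2 muscle-bearing libraries are without it. Marker sums of T and NK cells did not overlap between the groups, at 2.32 to 4.57 CPM in control and 6.55 to 12.9 CPM after heat stress (3 of 5 tested higher at an unadjusted p under 0.05), nor did those of endothelium, at 141 to 150 and 162 to 192 CPM (0 of 8 called), and their part in the member levels was not tested. With all 6 libraries edgeR called 1 of the 23 tested members lower and 0 higher at an unadjusted p under 0.05 (background 2.87% lower and 2.97% higher), and 0 at an adjusted p under 0.05 (smallest 0.85). DESeq2 also called 0 of the 22 members it adjusted, where it called 0.276% of genes lower and 0.234% higher. Members lay on both sides of 0, 7 of 23 below it (48.2% of all genes), with a median log2 fold change of 0.05 against 0.01 for all 12296 genes.

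The called gene was Sema3d, a secreted ligand, at 2.78, 2.94 and 2.80 CPM in control and 2.08, 1.88 and 1.34 CPM in heat-stressed liver. The groups did not overlap, but the counts were only 17 to 43 per library (log2 fold change -0.67 ± 0.30, adjusted p = 0.85). Sema3d kept an unadjusted p under 0.05 in 1 of 6 fits with a library left out, and lost it with DESeq2, with the length and GC offsets, with the replicate number as a block and with the column suffix as a term. Its log2 fold change was -0.70 with DESeq2, -0.57 with the offsets, -0.69 with the block and -0.67 with the suffix term. With that term 0 of the 23 members were lower, against 4.20% of all genes. Sema5b was at 5.75, 7.42 and 3.73 CPM in control and 1.94, 5.09 and 1.89 CPM after heat stress (log2 fold change -0.92 ± 0.42, adjusted p = 0.86). Its 1 heat-stressed library in the control range was the one with most muscle transcripts. Without both muscle-bearing libraries Sema5b differed by -1.55 ± 0.39 (adjusted p = 0.065) and Sema4b by 0.84 ± 0.37 (adjusted p = 0.43), while Sema3d no longer had an unadjusted p under 0.05 (-0.75 ± 0.42). In that fit 4.57% of all genes were lower and 5.84% higher.

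The 2 libraries with muscle transcripts were also those with the highest levels of several liver members. Sema4g was at 292, 208 and 280 CPM in control and 208, 349 and 271 CPM after heat stress, and Plxnb2 at 169, 93.7 and 89.2 CPM and 97.9, 141 and 121 CPM. For both genes the highest library of each group was the one with muscle transcripts. Plxna1 was at 7.75 and 9.34 CPM in those 2 libraries and at 4.16 to 6.24 CPM in the others. Nrp1 was at 62.9, 90.8 and 82.4 CPM in control and 87.0, 73.4 and 70.9 CPM after heat stress (log2 fold change -0.03 ± 0.19), and Nrp2 at 11.3 ± 0.491 and 11.3 ± 1.31 CPM. The part of muscle in these levels was not tested, except that leaving the 2 libraries out gave -0.04 ± 0.22 for Sema4g and 0.24 ± 0.19 for Plxnb2, neither with a p under 0.05. The 8 members not tested in liver, Plxna3, Plxnb3, Sema3a, Sema3e, Sema3g, Sema4f, Sema5a and Sema7a, had 0 to 12 reads in any liver library.

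Whether the heat stress difference of a member differed between the 2 tissues was tested as an interaction over all 12 libraries. It had an unadjusted p under 0.05 for 3 of 31 members, with 3.73% of all genes more positive and 5.91% more negative in liver, and 0 passed an adjusted p of 0.05 (smallest 0.52), as 0.00632% of all genes did. The 3 members, 1 more positive and 2 more negative in liver, are near the unadjusted shares. Of these 3 Sema4d was more positive in liver, by 1.16 ± 0.43. It was at 0.710, 0.489 and 1.21 CPM in control and 1.04, 1.74 and 0.868 CPM in heat-stressed liver, with overlapping groups there. These were 11, 6 and 13 reads in control and 14, 25 and 11 after heat stress. The highest was the muscle-bearing heat stress library 2. The liver log2 fold change of Sema4d was 0.62 ± 0.47 with all liver libraries and 0.18 ± 0.59 without both muscle-bearing ones. The T and NK cell marker sums given above were higher after heat stress in both tissues, while Sema4d was lower in brain. A link between these sums and Sema4d was not tested. Sema4f was more negative in liver, by -2.90 ± 1.07, on 8, 1 and 3 reads in control and 1, 0 and 0 after heat stress. The 8 reads were in the muscle-bearing control library 1. Sema4f had too few reads for the liver test and entered this fit through its brain reads. Sema3d was more negative by -0.94 ± 0.42. Over the 19 fits run for this contrast, the reported one included, Sema4d had an unadjusted p under 0.05 in 17, Sema4f in 16 and Sema3d in 6, and Plxna4 had one in 12, Sema4b in 10 and Plxna1 in 10. None of these fits left out both muscle-bearing libraries. The count of 3 was larger with the replicate number as a block, as given below. Of the leading brain genes, Plxna1 had a difference of 0.79 ± 0.41 (adjusted p = 0.54) and Plxna4 one of 0.81 ± 0.39 (adjusted p = 0.52). With the column suffix as a term, chosen after the data were seen, 7 members were more positive and 1 more negative in liver at an unadjusted p under 0.05, against 8.10% and 8.44% of all genes, and 0 passed an adjusted p of 0.05. In that fit Plxna1 had 1.08 ± 0.25 (adjusted p = 0.147) and Sema4d 1.47 ± 0.36 (adjusted p = 0.164).

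Partners of the family were examined from lists of known binding proteins and effectors. Of 15 tested coreceptors and binding partners, 6 were lower and 1 higher in brain at an unadjusted p under 0.05, against 10.0% of all genes in each direction. With the length and GC offsets 4 were lower and 2 higher (5.40% and 6.80% of all genes), and the median log2 fold change went from -0.24 to -0.02. Flt1 and Kdr, VEGF receptors that associate with neuropilins, had log2 fold changes of -1.06 ± 0.25 and -1.16 ± 0.32, and Itga1, the integrin subunit that pairs with the Sema7a-binding beta chain, had -0.96 ± 0.24. Flt1 was at 94.6, 46.2 and 52.4 CPM in control and 27.4, 34.3 and 31.3 CPM after heat stress, and it is also among the endothelial markers given above. The higher one was Tyrobp, the adaptor of Trem2 and plexin A1 complexes in myeloid cells (0.61 ± 0.17), named after its value was seen. None of the 5 tested VEGF ligands was called in brain.

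Of the 34 cytoplasmic effectors 6 were lower and 2 higher in brain, against 10.0% of all genes in each direction, and 2 were lower and 1 higher with the offsets, against 5.40% and 6.80%. Mical2, a redox enzyme that disassembles actin filaments, was at 393, 216 and 245 CPM in control and 126, 129 and 179 CPM after heat stress (-0.98 ± 0.24 on the log2 scale, adjusted p = 0.17). Arhgef11, the RhoA exchange factor bound by B-type plexins, was at 106, 85.7 and 97.3 CPM and 69.0, 55.9 and 69.6 CPM (-0.57 ± 0.13, adjusted p = 0.17). The 2 that were higher were the small GTPases Rap1a (0.49 ± 0.14) and Rap1b (0.27 ± 0.12), substrates of the plexin GTPase-activating domain, named after their values were seen, and neither had a p under 0.05 with the offsets. In liver 1 of 31 effectors was higher, where 2.97% of all genes were. It was Fes, a kinase downstream of Sema3a (0.57 ± 0.24, adjusted p = 0.85). The neuropilin 1 ligand gene Vegfb was higher too, at 13.7, 12.7 and 12.2 CPM in control and 16.2, 20.7 and 19.7 CPM after heat stress (0.55 ± 0.18, adjusted p = 0.66). Over all the lists used here, including other guidance families, the brain count of lower genes was 26 of 96 tested, against 10.0% of all genes, and became 9 of 96 with the offsets, against 5.40%.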

How the data were processed

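The authors deposited raw counts per gene symbol, made per the labels from stranded mRNA libraries with FastQC 0.11.9, Trimmomatic 0.39, HISAT2 2.2.1 on mm10 and featureCounts of Subread 2.0.1 (submitters' processing notes). The paper also describes an HTSeq route, and the annotation release, strand setting and treatment of multi-mapping reads are not given in the sources used here. The names of 3 liver columns (control 2, heat stress 1 and heat stress 3) end in 2nd, which is not explained in the sources used here. The authors' own DESeq2 comparisons (fold changes and p-values) were not used.

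Counts were tested per tissue with edgeR 4.0.16 (TMM, robust quasi-likelihood, filterByExpr with a minimum count of 10 and total of 15, R 4.3.3) and Benjamini-Hochberg adjustment over all genes, and in a fit of all 12 libraries for the tissue and interaction contrasts. CPM used the TMM factors of the tissue, and levels per length those of all 12 libraries. The script was tested on simulated data. Lengths, GC and coordinates came from GENCODE M21 on GRCm38, which matched 24366 of 25239 symbols, and promoter windows from RefSeq. No member shares exons with an opposite-strand gene of the table, and 2 (Nrp1 and Sema4a) overlap a miRNA row on the same strand. Alternatives were DESeq2 1.42.0, its size factors, no filter, a 12-library fit per tissue, a replicate block, length and GC offsets (mgcv 1.9.3), leaving out libraries and, added after the data were seen, the column suffix as a term. Deviations of same-numbered control brain and control liver libraries from their group means correlated at 0.28, 0.26 and 0.10, and other control pairs at -0.29 to 0.04, while in heat-stressed mice same-numbered libraries were at 0.04, -0.14 and 0.01. Deviations from a mean of 3 libraries cannot decide whether the numbers pair the tissues. The reported contrasts used no pairing, and the replicate block across tissues took the numbers as pairs in both groups.

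Members and lists were chosen with earlier results of these data known. Full values are given for up to 12 members per tissue with an unadjusted p under 0.05 and the 2 highest per length in each tissue, and up to 3 genes per partner list and tissue. A library is 1 animal per tissue according to the study (3 per group).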

Additional observations from a re-analysis of the deposited data

How the results depend on the processing

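The comparison of control tissues gave 23 and 4 members in every setting run, also without any single library. In brain the members lower at an unadjusted p under 0.05 numbered 14 as reported, 9 with all 12 libraries, 7 with length and GC offsets and 5 with the replicate block and the offsets, with medians of -0.16 and -0.14 under the offsets alone and with the block. The 5 were Nrp1, Plxna1, Sema4d, Sema5a and Sema7a, so Plxna4 and Sema6a were lost there. DESeq2 called 8 at an adjusted p under 0.05. Leaving out single libraries gave 10 to 18 lower and medians of -0.46 to -0.27. In liver the lower count of 1 became 2 with DESeq2 size factors and without a filter and 4 with all 12 libraries, and the higher count of 0 became 1 with the offsets (Sema4b) and 1 without the 2 libraries with muscle transcripts (Sema4b). The fits without a filter and with all 12 libraries took in 31 members, not 23. With all 12 libraries 863 of 15824 genes were lower at an unadjusted p under 0.05. Of the 4 members, Sema4f and Sema5a entered through their brain reads. With the column suffix 2nd as a term, added after the data were seen, the lower count was 0 and the interaction count 8. Sema3d, the reported liver gene, was lost without a filter and with DESeq2, the offsets, the block, the suffix term and the muscle-bearing libraries left out, and Sema5b was the lower gene in these fits except that with the suffix term (beside Sema4f without a filter). Single libraries left out gave 0 to 2 lower and 0 to 3 higher. Without liver control 1 no member was lower and Sema4b and Sema4a were higher, without heat stress 1 Sema6c, Sema4b and Sema3f were higher, without heat stress 2 Sema5b and Sema5a were lower, and without heat stress 3 none was lower. The interaction count of 3 was 7 with DESeq2 size factors, 6 with DESeq2, 7 without a filter, 5 with the block and 5 with the offsets, and 1 to 11 with single libraries left out (9 without brain control 2, 5 without brain control 3, 7 without brain heat stress 3, 11 without liver control 1, 1 without liver control 2 and 9 without liver heat stress 1). On the partner lists the brain count of 26 lower became 9 with the offsets, and in liver the offsets gave 1 lower and DESeq2 1 higher. The cause of these shifts was not tested.

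Signs turned for several log2 fold changes. In brain the offsets, and the block with the offsets, gave Nrp2 0.13 and 0.13, Plxnc1 0.039 and 0.048, Sema4b 0.041 and 0.034, Sema4g 0.077 and 0.11, Sema5b 0.12 and 0.11, and Sema6b 0.14 and 0.14, and the block with the offsets gave Sema6c 0.00027. With single libraries left out Nrp2 ranged from -0.25 to 0.056, Plxnd1 from -0.15 to 0.27, Sema3a from -0.16 to 0.037, Sema3b from -0.81 to 0.0013, Sema3c from -0.15 to 0.0072, Sema4g from -0.32 to 0.15, Sema5b from -0.37 to 0.063 and Sema6b from -0.13 to 0.025. In liver the offsets, and the block with the offsets, gave Nrp1 0.062 and 0.065, Plxnb2 -0.046 and -0.033, and Sema4g -0.064 and -0.056, the offsets gave Sema4a -0.0035, the 12-library fit gave Plxnb2 -0.012, and leaving out both muscle-bearing libraries gave Sema4g -0.044. With single libraries left out Nrp1 ranged from -0.18 to 0.086, Plxnb2 from -0.13 to 0.38, Sema4a from -0.15 to 0.45 and Sema4g from -0.12 to 0.23. Signs turned in at least 1 fit for 13 of the 23 tested liver members, the other 9 being Nrp2, Plxna1, Plxna4, Plxnb1, Plxnc1, Sema3c, Sema4c, Sema6a and Sema6d, with log2 fold changes from -0.35 to 0.55 over all fits.

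Within a tissue the replicate numbers gave no clear sign of pairing the libraries: same-numbered brain control and heat stress libraries correlated at -0.30, 0.23 and -0.20 in their deviations from the group mean, and liver ones at -0.63, -0.55 and -0.09. With the replicate block alone the same 14 members were lower in brain (median -0.35), and the 1 in liver was Sema5b in place of Sema3d (median 0.07). The block across tissues changed no call between control brain and control liver. Depth limits the 8 members with 0 to 12 reads per liver library, which the per-tissue fit did not test. With 3 libraries per group, and cell type sums that move with the groups in brain, values apply to these tissue pieces.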

Other observations

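Genes of other axon guidance families were also called lower in heat-stressed brain, fewer of them with the length and GC offsets. Of 22 tested genes of the netrin, Slit and RGM systems, 8 were lower and 0 higher at an unadjusted p under 0.05 (edgeR; 10.0% of all genes were called in each direction), with a median log2 fold change of -0.26. Neo1, a receptor of netrins and RGM proteins, was at 118, 91.5 and 101 CPM in control and 79.6, 75.1 and 79.7 CPM after heat stress (-0.41 ± 0.12 SE on the log2 scale). Slit1, a secreted repellent that binds Robo receptors, was at 57.2, 53.1 and 55.7 CPM in control and 31.3, 34.8 and 49.0 CPM after heat stress (-0.53 ± 0.16), and Dscam, a netrin receptor and adhesion protein, had -0.55 ± 0.18 with overlapping groups. No gene of these families passed an adjusted p of 0.05 by edgeR, and none by DESeq2. With the length and GC offsets 1 of the 22 was lower, where 5.40% of all genes were, and the median was -0.09.

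Of 20 tested ephrins and Eph receptors 6 were lower and 0 higher, against 10.0% of all genes in each direction, with a median of -0.13. Ephb2, a receptor at excitatory synapses, was at 20.6, 12.9 and 17.5 CPM in control and 11.5, 8.78 and 10.4 CPM after heat stress (-0.73 ± 0.20, adjusted p = 0.17), without overlap. The ligand gene Efna5 had -0.56 ± 0.18 and Ephb3 -0.63 ± 0.21. With the offsets 2 of the 20 were lower and 1 higher (5.40% and 6.80% of all genes), 9 of the 20 lay below 0 (49.3% of all genes), the median turned to 0.03, and Efna5 had -0.61. In liver none of the 11 netrin, Slit and RGM genes and none of the 8 ephrin genes tested had an unadjusted p under 0.05, and by DESeq2 none of them had an adjusted p under 0.05.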
